A study of Bubalus bubalis with 12 samples.

Results

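HSD3B1, SRD5A2 and FSHR are 3 genes of steroid hormone synthesis and gonadotropin signalling, read here by 15 array probes for the histone marks H3K4me2 and H3K27me3 in sperm of water buffalo bulls (Bubalus bubalis). The members were the probes that are not controls and carry one of the 3 symbols: 2 for HSD3B1, 3 for SRD5A2 and 10 for FSHR, of 177440 probes on the array. All 15 passed the filter on input signal, and the 3 genes belong to the 6805 genes with at least 2 usable probes. The genes were chosen with the values of these same arrays in view. HSD3B1 was chosen by its H3K4me2 difference between the fertility groups, and which values led to the other 2 is not recorded, so every measured value of the 3 genes counts as used in the choice. Their values are therefore given as a description, with confidence intervals and without p-values.

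The study compared 3 bulls labelled high-fertile (HF2, HF3 and HF5) with 3 labelled subfertile (SF1, SF4 and SF5). Frozen semen of each bull gave 1 array per mark, 12 arrays in all, so each group and mark has 3 bulls. On every array the DNA precipitated with the antibody (ChIP) was labelled with Cy5 and the bull's own input DNA, not precipitated, with Cy3. Each probe's value is the ChIP signal divided by the input signal, in log2 and centred on the array's median, so that 0 is the level of the median probe and each unit is a doubling. The labels give the fertility class of each bull but neither age, breed nor the measure of fertility behind the class, and dyes were not swapped. The probes were designed on cattle sequence, which buffalo sequence need not match in full.

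Steroid hormones are made from cholesterol in steps. HSD3B1 encodes a 3-beta-hydroxysteroid dehydrogenase and isomerase, the enzyme type that converts pregnenolone to progesterone, a step shared by androgen and other steroid synthesis. SRD5A2 encodes a steroid reductase that turns testosterone into the stronger androgen dihydrotestosterone. FSHR is the receptor of follicle-stimulating hormone, and in the testis it is a marker of Sertoli cells, the somatic cells that nurse the germ cells. H3K4me2 is found at promoters that are active or poised, and H3K27me3 is laid down by Polycomb complexes at silent developmental genes. Sperm replace most histones with protamines, and the nucleosomes that stay are enriched at CpG-rich promoters in several mammals. Sperm are transcriptionally quiet, so a mark in sperm is not a readout of expression in sperm.

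The probe sequences show what each gene value rests on, and are given 5′ to 3′ as the files list them, with CpG dinucleotides in capitals. The array design calls both HSD3B1 probes promoter probes. They lie 740 bases apart on cattle chromosome 3 (build HGSC Btau_3.1, as are all positions here), at chr3:25730358-25730417 and chr3:25731098-25731157, and neither holds a CpG.
HSD3B1 first probe: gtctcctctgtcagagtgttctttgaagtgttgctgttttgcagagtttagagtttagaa
HSD3B1 second probe: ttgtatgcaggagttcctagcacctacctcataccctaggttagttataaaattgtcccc
The SRD5A2 probes belong to the CpG island class and start 4 bases apart at chr11:15012488-15012547, chr11:15012492-15012551 and chr11:15012496-15012555, so they read 1 stretch of 68 bases.
SRD5A2 first probe: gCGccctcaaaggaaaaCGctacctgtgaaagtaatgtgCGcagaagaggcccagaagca
SRD5A2 last probe: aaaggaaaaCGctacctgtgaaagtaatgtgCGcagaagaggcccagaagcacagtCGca
The HSD3B1 probes are AT-rich, with a GC content of 40% and 43.3%, and 34.4% of the array's 13422 promoter probes likewise hold no CpG. The SRD5A2 probes hold 2 or 3 CpGs, and the median CpG island probe holds 3. The half-site AGGTCA, which nuclear receptors such as SF1 (the protein NR5A1, not the bull) bind in variants, was searched on both strands. It occurs in 0 of the 15 member probes and in 2.88% of all probes.

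The 10 FSHR-labelled probes are also of the CpG island class and lie at chr11:32546787-32547005, 9 of them overlapping within the first 100 bases and 1 further on. Their letters read as the replication origin shared by common bacterial cloning plasmids rather than as mammalian sequence. This is a reading from general knowledge of that origin and was not computed, because no plasmid sequence was used here. They are called FSHR-labelled probes below, and their sequence is not shown. One other probe on the array, placed on a cattle contig without a chromosome, shares a run of 20 bases with them, while the HSD3B1 and SRD5A2 probes share such a run with 0 other probes.

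HSD3B1 carried less H3K4me2 relative to input in the high-fertile bulls than in the subfertile bulls. Its H3K4me2 log2 ratio was -0.67 in HF2, -0.42 in HF3 and -1.59 in HF5, against 0.47 in SF1, 1.24 in SF4 and 0.10 in SF5. All 3 high-fertile bulls lay below the array median and all 3 subfertile bulls above it, with no overlap. The means were -0.89 ± 0.62 and 0.60 ± 0.58 (SD, n = 3 bulls each), and the difference was -1.49 (95% confidence interval -2.65 to -0.33, from a limma fit over all genes). This is the difference by which the gene was chosen. At an adjusted p of 0.05, limma called 0 of 6805 genes (0%) between the fertility groups for H3K4me2, with 198 (2.91%) at an unadjusted p under 0.05. The groups did not overlap in 448 genes (6.58%), of which 211 (3.1% of all genes) had the high-fertile bulls below, as HSD3B1 did.

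**Figure D1:**
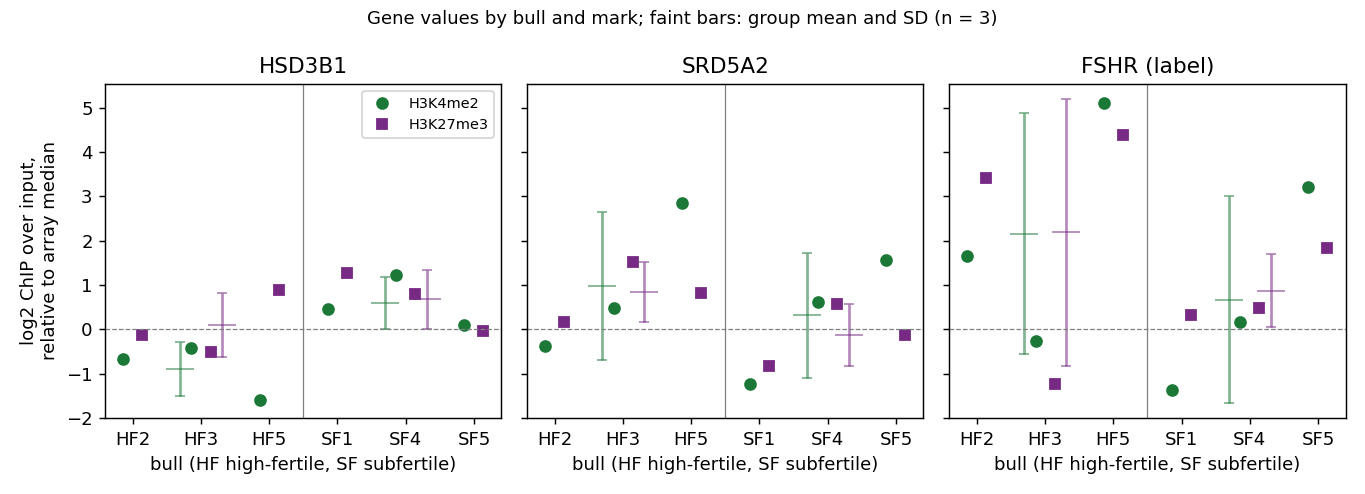
ChIP over input, in log2 and centred on the array median, for HSD3B1, SRD5A2 and the FSHR-labelled probes, by bull and mark. Each circle (H3K4me2) or square (H3K27me3) is 1 bull, and the faint crosses give the mean and SD of 3 bulls. The HSD3B1 H3K4me2 groups do not overlap (-1.59 to -0.42 against 0.10 to 1.24), and the FSHR-labelled values span -1.37 to 5.10 for H3K4me2.

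The H3K4me2 difference of HSD3B1 was larger at its second probe. There the ratio was -0.34 in HF2, 0.38 in HF3 and -1.41 in HF5, against 1.03 in SF1, 1.80 in SF4 and 2.36 in SF5. The groups did not overlap at this probe, and the difference was -2.19. Input at this probe averaged -1.67 on the log2 scale, so its ratios divide by a low signal, though one above background on all 12 arrays. The ChIP signal of HF5 was not well above background there, so its ratio there is uncertain, and without HF5 the difference was -1.71. At the first probe, 740 bases away, the ratio was -1.0, -1.23 and -1.77 in the high-fertile bulls, in the same order, and -0.10, 0.67 and -2.17 in SF1, SF4 and SF5. The groups overlapped there because SF5 had the lowest value of all 6 bulls, and the difference was -0.80. Mean input at this first probe was -0.02. In SF5 the 2 probes were 4.54 log2 units apart, so the low-lying gene mean of SF5 averages a low and a high probe. Of the 15 member probes, the second HSD3B1 probe was the 1 whose H3K4me2 groups did not overlap (7.17% of all probes did not), and for H3K27me3 it was 0 of 15 (8.02% of all probes).

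For H3K27me3, HSD3B1 was -0.12 in HF2, -0.50 in HF3 and 0.90 in HF5, against 1.27 in SF1, 0.80 in SF4 and -0.04 in SF5. The groups overlapped, with HF5 above SF4 and SF5. The means were 0.09 ± 0.72 and 0.68 ± 0.66 and the difference was -0.59 (95% confidence interval -1.78 to 0.61). For H3K27me3, limma called 0 of 6805 genes (0%) between the groups at an adjusted p of 0.05, with 277 (4.07%) at an unadjusted p under 0.05. The H3K4me2 difference of HSD3B1 minus its H3K27me3 difference was -0.91 (-0.15 without HF5). Its interval, from a fit that did not pair the marks within a bull, was -2.49 to 0.68 and holds 0. A fertility difference particular to H3K4me2 was therefore not resolved in that fit.

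The H3K4me2 ChIP signal of HSD3B1 differed between the groups on average, and its input signal, averaged over its probes, hardly did. Input, as log2 over the array's median input and averaged over the 2 arrays of a bull, was -0.85 ± 0.60 in the high-fertile and -0.83 ± 0.52 in the subfertile bulls. The H3K4me2 ChIP signal over its own array median was -0.76, -1.38 and -2.82 in HF2, HF3 and HF5, against -0.71, 0.29 and -0.04 in SF1, SF4 and SF5. Its group difference of -1.5 is close to that of the ratio, although HF2 and SF1 differed by little. The low HF5 value includes the second probe, where its ChIP signal was not well above background. The H3K27me3 ChIP signal was -0.74 ± 0.75 in the high-fertile and -0.14 ± 0.35 in the subfertile bulls, and its groups overlapped. When the mean input of the 6 bulls replaced each bull's own input, the H3K4me2 difference was -1.46, and the groups then overlapped, at 0.10 in HF2 and 0.00 in SF1. HF5 and SF1 shared a slide: their H3K4me2 difference was -2.06, and that of the other 4 bulls -1.21. Leaving out 1 bull at a time gave -1.74 to -1.14. Because the groups did not overlap with each bull's own input, no choice of bulls could turn the sign.

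For H3K4me2, SRD5A2 varied more between bulls than between groups. Its H3K4me2 ratio was -0.38 in HF2, 0.48 in HF3 and 2.85 in HF5, against -1.22 in SF1, 0.61 in SF4 and 1.56 in SF5. HF5 was highest and SF1 lowest, and the groups overlapped over most of their range. The means were 0.99 ± 1.67 and 0.32 ± 1.42 and the difference 0.67 (95% confidence interval -1.48 to 2.82). This difference changed sign without HF5 (-0.27) and without SF1 (-0.10), the 2 bulls on one slide. Between those 2 bulls it was 4.08, and among the other 4 bulls it was -1.04.

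The H3K27me3 ratio of SRD5A2 was 0.17 in HF2, 1.53 in HF3 and 0.82 in HF5, against -0.83 in SF1, 0.58 in SF4 and -0.12 in SF5. The high-fertile bulls were higher on average, at 0.84 ± 0.68 against -0.12 ± 0.70, but HF2 lay below SF4. The difference was 0.96 (95% confidence interval -0.23 to 2.15). It was positive between HF5 and SF1 on slide 4 (1.64), among the other 4 bulls (0.62) and without each bull in turn (0.61 to 1.31). These are subsets of the same bulls, and every SRD5A2 value counts as used in the choice, so the steady sign is a description. The input of SRD5A2 differed in the opposite direction: -0.28, -1.39 and -1.86 in HF2, HF3 and HF5, against 0.47, -0.50 and -0.92 in SF1, SF4 and SF5. Its mean was 0.86 log2 units lower in the high-fertile bulls, while the H3K27me3 ChIP signal differed by 0.08 and the H3K4me2 ChIP signal by -0.14. With the mean input of the 6 bulls in its place, the difference was 0.11 for H3K27me3 and -0.11 for H3K4me2. Because the 3 probes overlap, their likeness within a bull (at most 1.11 log2 units apart for H3K4me2) is that of repeated readings of 1 stretch.

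**Figure D2:**
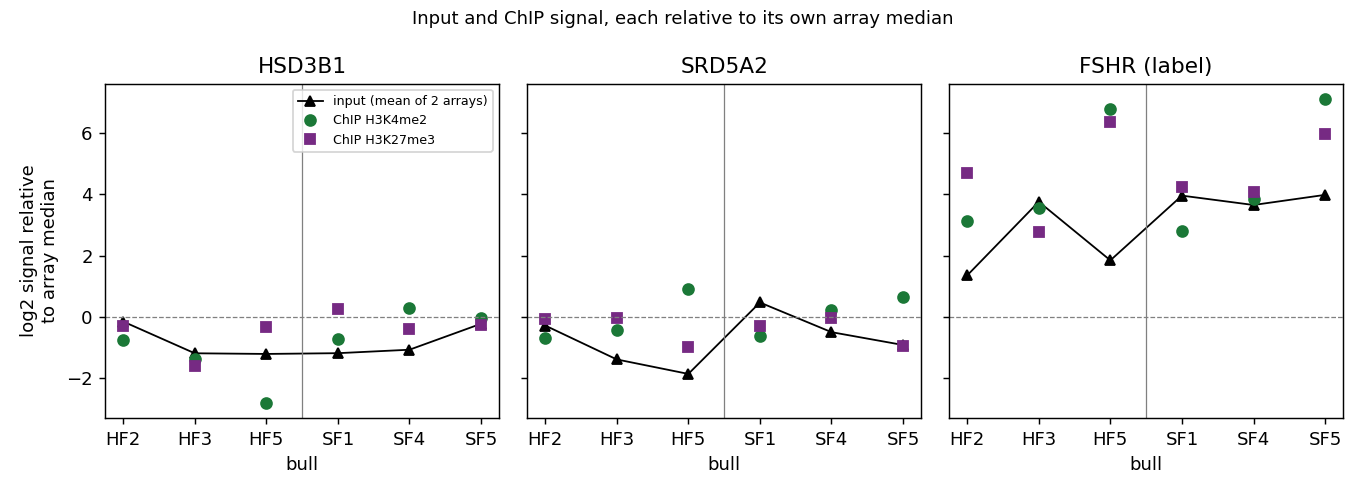
Input signal and ChIP signal, each as log2 over its array's median, for the 3 genes in each bull. Triangles give the input (mean of a bull's 2 arrays, joined only as a guide), circles the H3K4me2 and squares the H3K27me3 ChIP signal. Input at the FSHR-labelled probes is 1.35 to 3.98 and lowest in HF2 and HF5, while HSD3B1 and SRD5A2 lie near or below the array median.

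The FSHR-labelled probes had among the highest and most variable ratios of the array. Their H3K4me2 ratio was 1.65 in HF2, -0.26 in HF3 and 5.10 in HF5, against -1.37 in SF1, 0.17 in SF4 and 3.22 in SF5. Their H3K27me3 ratio was 3.42 in HF2, -1.24 in HF3 and 4.39 in HF5, against 0.32 in SF1, 0.48 in SF4 and 1.83 in SF5. Both groups held low and high bulls, HF5 was the highest for both marks, and the groups overlapped. The group means were 2.16 ± 2.72 and 0.67 ± 2.33 for H3K4me2, which leaves a difference of 1.49 (95% confidence interval -1.83 to 4.81). For H3K27me3 they were 2.19 ± 3.01 and 0.88 ± 0.83, which leaves 1.32 (95% confidence interval -1.67 to 4.31). The intervals are wide because the bulls were far apart. The SD over the 6 bulls was 2.41 for H3K4me2, where 7 of the 6805 genes had a larger one and the median gene had 0.64, and 2.10 for H3K27me3, where 10 genes had a larger one and the median was 0.60.

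The group difference at the FSHR-labelled probes rested on HF5 and, for H3K4me2, in part on SF1, and these 2 bulls shared a slide. Between those 2 bulls it was 6.47 for H3K4me2 and 4.07 for H3K27me3, and among the other 4 bulls it was -1.0 and -0.06. Without HF5 it was 0.02 and 0.22, and without SF1 it was 0.47 and 1.04. Over all single bulls left out it ranged from 0.02 to 2.76 for H3K4me2. For H3K27me3 it ranged from 0.22 to 3.03, the latter end without HF3. The ChIP colour was saturated at 6 of the 10 probes on both arrays of HF5 and at 2 on the H3K4me2 array of SF5, so these values may understate the signal there. The input was saturated on none of the 12 arrays.

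Input DNA at the FSHR-labelled probes was far above the array median and differed between bulls. It was 2.55 times the median in HF2, 13.5 times in HF3 and 3.59 times in HF5, against 15.5, 12.6 and 15.8 times in SF1, SF4 and SF5. HF2 and HF5 were low and the other 4 bulls lay close together. The 2 arrays of a bull differed by at most 0.35 log2 units, so the level repeated within bulls. The high-fertile mean was 2.32 ± 1.27 and the subfertile mean 3.86 ± 0.18 on the log2 scale, and 41 of the 6805 genes had a higher input over all bulls. The ChIP signal differed between the groups by -0.10 for H3K4me2 and by -0.16 for H3K27me3. With the mean input of the 6 bulls the ratio differed by -0.07 and -0.12, in place of 1.49 and 1.32. The ChIP group means carry SDs of 1.06 to 2.25 log2 units and include the saturated probes, and HF3 had an input like that of the subfertile bulls, so these values do not resolve a difference in ChIP signal in either direction. The spread between bulls stayed with that common input, from -0.41 in SF1 to 4.02 in SF5 for H3K4me2.

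**Figure D3:**
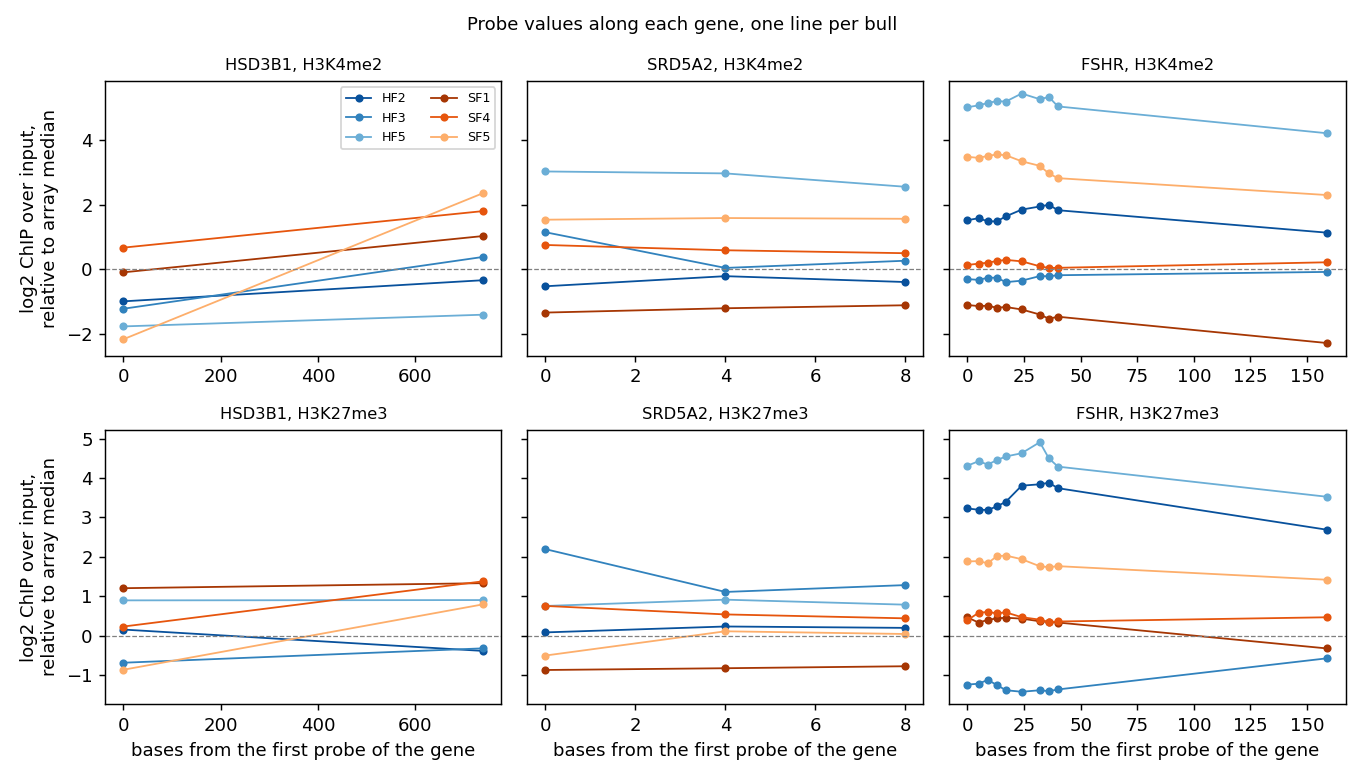
Log2 ratio of each member probe in each bull against its distance in bases from the gene's first probe. Each line is 1 bull, the upper panels are H3K4me2 and the lower H3K27me3. The FSHR-labelled probes of a bull lie at most 1.39 log2 units apart while bulls differ by up to 6.47, and the 2 HSD3B1 probes differ most in SF5, by 4.54 for H3K4me2.

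The 10 FSHR-labelled probes lay close together within a bull. Their spread there was 0.25 to 1.26 log2 units for H3K4me2 and 0.26 to 1.39 for H3K27me3, small beside the range over bulls of 6.47 and 5.63. The probe on the unplaced contig that shares 20 bases with them read 2.24, 0.04 and 5.24 for H3K4me2 in HF2, HF3 and HF5, and -2.13, 0.55 and 2.95 in SF1, SF4 and SF5. It differed from the FSHR-labelled mean by at most 0.76 log2 units on any array, with a Pearson r of 0.983 over the 12 arrays. A search after the values were seen found 13 probes of other labels, among 175786, that followed the FSHR-labelled mean with r over 0.95. Of these, 2 moved by more than 0.5 log2 units per unit of the FSHR-labelled mean, the contig probe and a CpG island probe without a gene symbol at chr15:44726845-44726904, and the next highest slope was 0.30. The chromosome 15 probe had r = 0.993 and a slope of 0.93, with 1.09, -0.84 and 4.36 for H3K4me2 in HF2, HF3 and HF5 and -1.89, 0.29 and 2.64 in SF1, SF4 and SF5. Its letters, again by reading alone, look like the phage-derived origin carried by many cloning plasmids. Whether plasmid DNA was present in the samples was not tested. The 12 arrays share 6 input samples and the slides, so these correlations describe the arrays and are not independent evidence.

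On the cattle assembly, a neighbouring gene did not show the FSHR-labelled pattern. LHCGR, the receptor of luteinizing hormone and the next gene on the array 286281 bases away, had an H3K4me2 ratio of 0.04 ± 0.31 in the high-fertile and -0.39 ± 0.28 in the subfertile bulls and an H3K27me3 ratio of -0.11 ± 0.52 and -0.16 ± 0.83. Its input was -0.45 on the log2 scale, against 3.09 at the FSHR-labelled probes. Near HSD3B1, HAO2 (2 probes, 46168 bases away), an oxidase of hydroxy acids, had H3K4me2 ratios of -0.95 ± 0.76 and -0.22 ± 0.69, and ZNF697 (1 probe, 32585 bases away) had 0.70 ± 2.07 and 1.71 ± 1.20. For H3K4me2 both neighbours of HSD3B1 were lower in the high-fertile bulls on average, by no more than the SD between high-fertile bulls. For H3K27me3 HAO2 read -0.93 ± 0.47 in the high-fertile and 0.08 ± 0.50 in the subfertile bulls, a gap larger than either SD, and ZNF697 read 0.99 ± 2.44 and 0.96 ± 0.83. FAM136A and MEMO1, over 200 kilobases on either side of SRD5A2, read 0.38 and -0.09, and 0.27 and 0.30, in the 2 groups for H3K4me2.

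Each level is read against its own array median, and levels of different probes are set side by side as a description only. Over the 6 bulls, the FSHR-labelled mean was 1.42 for H3K4me2, with 2 of 6805 genes higher, and 1.53 for H3K27me3, with 0 genes higher. SRD5A2 was at 0.65 for H3K4me2 (the 97.0th percentile of genes) and 0.36 for H3K27me3 (the 90.9th percentile). HSD3B1 was at -0.15 for H3K4me2 (the 25.2th percentile) and 0.39 for H3K27me3 (the 92.3th percentile). These levels rested on few bulls. Without HF5 the FSHR-labelled level was 0.68 for H3K4me2 (0.78 without SF5) and 0.98 for H3K27me3, where it was 2.39 without HF3. The SRD5A2 level for H3K4me2 was 0.18 without HF5, 0.34 without SF5 and 1.04 and 0.99 without SF1 and HF2, and for H3K27me3 it was 0.19 without HF3 and 0.18 without SF4. The HSD3B1 level for H3K27me3 was 0.18 without HF5 and 0.24 without SF1, and its H3K4me2 level was 0.03 without HF5. The 95% confidence intervals overlapped between all 3 genes for both marks, and the order of their levels was not tested. The FSHR-labelled H3K27me3 level had the 1 interval that left out 0 (0.04 to 3.03). Limma called 0 genes (0%) against the array median for either mark, with 302 (4.44%) and 360 (5.29%) at an unadjusted p under 0.05 for H3K4me2 and H3K27me3.

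Within a bull, neither mark was steadily above the other. H3K4me2 minus H3K27me3 for HSD3B1 was -0.55 in HF2, 0.08 in HF3 and -2.49 in HF5, against -0.80 in SF1, 0.43 in SF4 and 0.13 in SF5. HF5 had the lowest H3K4me2 and the second highest H3K27me3 value of this gene, an order that depends on the normalization. With within-array loess its H3K4me2 value was -0.60 and HF3 was lowest at -1.12, and its H3K27me3 value was the highest at 1.33. For SRD5A2 the difference was highest in HF5 (2.04) and SF5 (1.68) and lowest in HF3 (-1.04). For the FSHR-labelled probes it was highest in SF5 (1.39) and lowest in HF2 (-1.78). Each gene had the same sign in 3 of 6 bulls, and the means were -0.53 for HSD3B1 (95% confidence interval -1.33 to 0.26), 0.29 for SRD5A2 (-1.01 to 1.59) and -0.12 for the FSHR-labelled probes (-2.58 to 2.34). Limma called 0 of 6805 genes between the marks, with 41 (0.602%) at an unadjusted p under 0.05, and 0 for the difference of the fertility differences, with 45 (0.661%). All intervals hold 0. They come from a fit of group means without the bull as a block, so they do not use the pairing of marks within a bull. The signs for SRD5A2 turned without HF5 (-0.18) or SF5 (-0.02), and those for the FSHR-labelled probes turned without HF2 (0.32) or SF1 (0.26).

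The 3 genes followed no common pattern. Over the 12 arrays, Pearson's r was -0.522 between HSD3B1 and SRD5A2, -0.317 between HSD3B1 and the FSHR-labelled probes and 0.516 between SRD5A2 and the FSHR-labelled probes. Similar genes were sought among 6680 with values on all arrays, a symbol that is not a locus identifier and probes on 1 chromosome. The genes most like HSD3B1 were TSGA13 (r = 0.846), CDO1 (0.829) and SESN2 (0.825). Those most like SRD5A2 were CHAF1B (0.925), LARS2 (0.924) and PPP6R1 (0.918). Those most like the FSHR-labelled probes were COX7A1 (0.937), HERC2 (0.935) and NPRL3 (0.924). TSGA13 is a testis-specific gene, CDO1 degrades cysteine and SESN2 is a stress-response gene. These values describe likeness over arrays that share input samples and slides, and no test was made of them.

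Of 100 listed genes of steroid synthesis and gonadotropin signalling, the 3 chosen genes included, 37 had at least 2 usable probes, 20 had 1 and 43 had none under the symbol used. STAR, CYP11A1, CYP17A1 and CYP19A1, which carry cholesterol into the mitochondrion and cut it towards androgens and oestrogens, were among those without enough probes, as were GNRHR, HSD3B7 and SRD5A3. Leaving out the 3 chosen genes, 34 remained, and limma called 0 of them for either mark. For H3K4me2, 17 of the 34 were higher and 17 lower in the high-fertile bulls, with a median difference of -0.01, against -0.02 over all genes. The groups did not overlap in 2 of the 34 (5.88%, against 6.58% of all genes), both with the high-fertile bulls below. For H3K27me3, 18 were higher and 16 lower, the median difference was 0.01, as over all genes, and the groups did not overlap in 5 (14.7%, against 8.57% of all genes). Over all 37 the H3K4me2 median was 0.02, and it was -0.25 without HF5, -0.10 without SF1, 0.30 between HF5 and SF1 on their slide and -0.25 among the other 4 bulls.

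Among steroid receptors, NR3C2, the mineralocorticoid receptor, was lower in the high-fertile bulls for both marks with no overlap: -0.15 ± 0.08 against 0.69 ± 0.68 for H3K4me2 and -0.74 ± 0.18 against 0.33 ± 0.39 for H3K27me3, over 43 probes. ESR1, the oestrogen receptor alpha gene, read 0.16 ± 0.46 and 0.44 ± 1.03 for H3K4me2. FST encodes follistatin, which binds and blocks activin and so lowers the release of follicle-stimulating hormone. It too was lower without overlap for both marks, by -0.76 for H3K4me2 (-0.22 ± 0.36 against 0.54 ± 0.24) and by -0.33 for H3K27me3. Both marks of a bull are read against the same input, so they are not independent readings. How many of all genes lacked overlap for both marks was not counted. For H3K27me3 alone the groups did not overlap in 3 further genes. TACR3, the neurokinin B receptor that acts upstream of gonadotropin-releasing hormone, was lower at -0.65 ± 0.11 against -0.04 ± 0.20. CITED2, a transcriptional co-regulator, was higher at 0.29 ± 0.15 against -0.40 ± 0.37, and ACVR2A, an activin receptor, was higher at 0.56 ± 0.37 against 0.08 ± 0.24. With SRD5A1, the paralog of SRD5A2, the H3K4me2 ratio was 0.98 ± 0.98 in the high-fertile and 0.10 ± 1.5 in the subfertile bulls, and the groups overlapped as in SRD5A2.

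**Figure D4:**
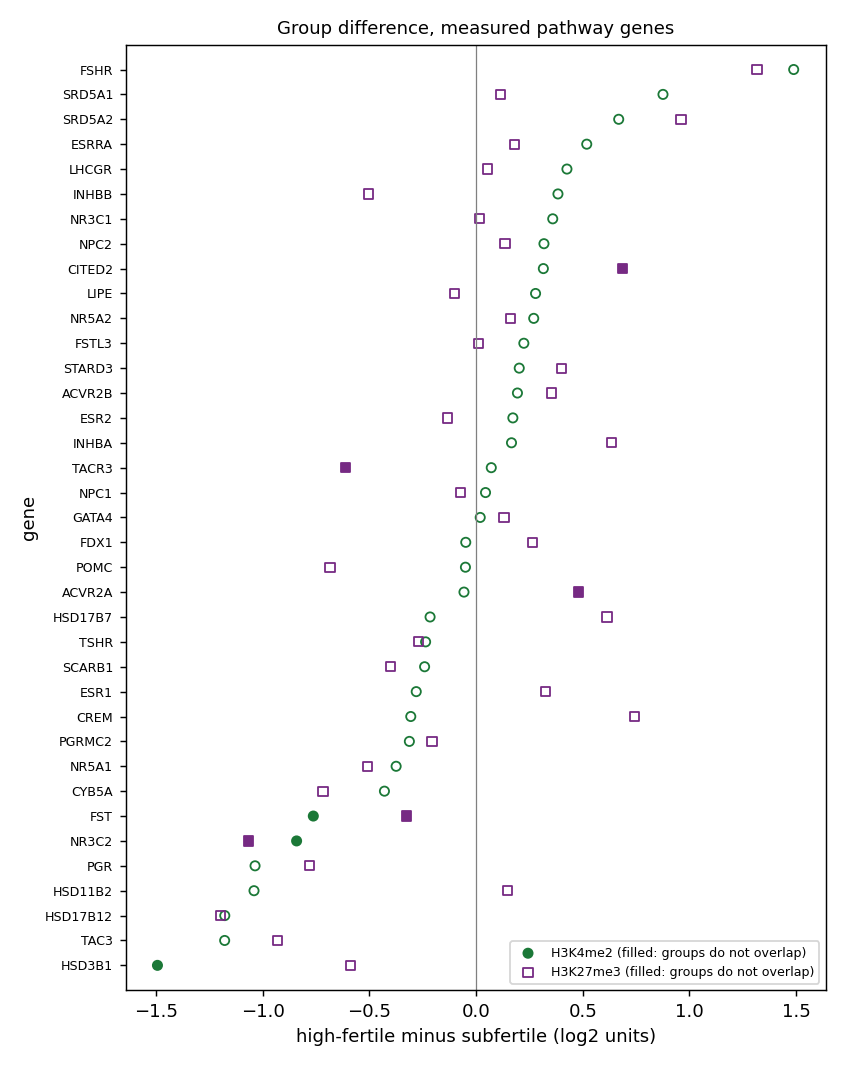
High-fertile minus subfertile difference of the log2 ratio for the 37 steroid and gonadotropin genes with at least 2 usable probes, in log2 units, sorted by the H3K4me2 difference. Circles are H3K4me2 and squares H3K27me3, each from the means of 3 bulls a group, and filled symbols mark groups that do not overlap. HSD3B1 (-1.49) and the FSHR-labelled probes (1.49) are the extremes for H3K4me2. HSD3B1 was chosen by this difference, and the FSHR-labelled values count as used in the choice, so their place is a description only.

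In level, the FSHR-labelled probes (1.42) and SRD5A2 (0.65) were the highest of the 37 for H3K4me2. Their values count as used in their choice. The lowest were NR5A1 (-0.44 ± 0.57, n = 6 bulls), the master regulator of steroidogenic genes, and LIPE (-0.38 ± 1.47), the hormone-sensitive lipase. For H3K27me3 the highest were the FSHR-labelled probes (1.53) and HSD11B2 (0.88 ± 0.39), which inactivates cortisol, and the lowest LIPE (-0.52 ± 1.79) and INHBA (-0.50 ± 1.12), an inhibin and activin subunit. Of the 6 steroidogenic enzymes measured beside HSD3B1 and SRD5A2, 1 was higher and 5 lower for H3K4me2 in the high-fertile bulls, with a median of -0.32, where 3282 of all genes were higher and 3523 lower. For H3K27me3, 4 were higher and 2 lower, with a median of 0.13, where 3451 of all genes were higher and 3354 lower.

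Arrays were alike in median brightness: the median processed signal was 645 to 815 in the input colour and 622 to 742 in the ChIP colour. They differed in the share of probes with ChIP signal well above background. This was 93.9% on the H3K4me2 array of HF5, 95.7% on that of SF5 and 97.1% on the H3K27me3 array of HF5. On every other array it was 98.9% or more. For input the share was lowest on the arrays of HF3, at 97.7% (H3K4me2) and 97.1% (H3K27me3). Markers of sperm and of other cell types that semen or testis could hold were read on the same scale, but a chromatin array gives no expression level, so the labelled cell type could not be checked by level. For H3K4me2 the median over 6 sperm genes was -0.30 to -0.09 in the high-fertile and 0.00 to 1.26 in the subfertile bulls, without overlap. For H3K27me3 its groups overlapped, at -0.39 to 0.03 against -0.35 to 0.35. The 1 measured of 6 leukocyte markers, CSF1R, read -1.28 to 0.65 against 0.65 to 1.28 for H3K4me2, so its groups all but met. For H3K4me2 the median overlapped between groups over 5 epithelial genes (-0.15 to 0.58 against 0.01 to 1.28). It also overlapped over 2 Leydig cell genes, HSD3B1 included (-0.76 to -0.05 against -0.07 to 0.26). Over 3 Sertoli cell genes, with the FSHR-labelled probes standing for FSHR, it was -0.26 to 0.95 against -0.29 to 0.54. These probes may not read that gene, so this range need not describe Sertoli cell genes. Of all single genes, 6.58% had H3K4me2 groups that did not overlap. Of these lists limma called 0 genes, and their part in the HSD3B1 difference was not tested. TNP1, the sperm transition protein gene, was at -0.04 ± 0.41 for H3K4me2 and -0.37 ± 0.43 for H3K27me3 over the 6 bulls.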

How the data were processed

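Sperm chromatin of 6 bulls was digested with micrococcal nuclease, precipitated, ligated to linkers and amplified by PCR, per the labels' protocols. The authors used Agilent Feature Extraction 10.7, per the submitters' processing notes (version 10.7.3.1 per the file headers), to obtain each processed intensity, background-subtracted and dye-normalized. The deposited flags (other) mark background, saturation and outliers per spot. The deposited value table holds log2 ratios with a correction for brightness whose method is not given in the sources used here, and served as an alternative.

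From the scanner files, log2 of processed Cy5 over Cy3 was centred on each array's median over 177372 probes whose input passed the scanner software's background test on 6 or more of the 12 arrays. Outlier spots were set missing and saturated spots stayed in. A gene's value is the mean of its probes, at least 2, which gave 6805 of 9328 symbols. Limma 3.58.1 under R 4.3.3 estimated the group means (lmFit, eBayes, Benjamini-Hochberg, two-sided), checked on simulated data, and tables were made in Python 3.11.15. The half-width of the 95% interval in the median gene was 1.20 (H3K4me2) and 1.10 (H3K27me3) log2 units, and the number of arrays limits the precision. Each group member is 1 bull, and arrays have no read depth.

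The labels name the same bull's input on both arrays of a bull number within a group, and input deviations correlated across genes at r of 0.949 to 0.984 within bulls and -0.435 to 0.186 between bulls, so the bull is a pair across marks. HF5 and SF5 are different bulls, so no pairs exist across fertility groups. HF5 and SF1 were hybridised on slide 4, and the remaining bulls on a slide each.

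The members and the gene lists were chosen with earlier results of these data known. Named genes were the 3 members, list genes that were called or whose groups did not overlap, the 2 highest and 2 lowest list genes per mark, the best known pathway genes where measured, the nearest neighbours, the 3 most similar genes per member, and TNP1; some of these are not reported here. Alternatives were within-array loess, the deposited table, normexp background, no probe filter, the probe median, a common input, the bull as a block, each bull left out, HF5 and SF5 left out, and slides apart. SRD5A2 and FSHR matched the buffalo RefSeq table by symbol and HSD3B1 did not; no buffalo genome was used here.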

Additional observations from a re-analysis of the deposited data

How the results depend on the processing

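Limma called 0 genes in all 6 comparisons under every alternative run, and the bull as a replicate block called 0 between the marks, with values of -0.53 for HSD3B1, 0.29 for SRD5A2 and -0.12 for the FSHR-labelled probes, and changed no call. The HSD3B1 H3K4me2 difference ranged from -2.06 to -1.14 under 15 alternatives. The gene was chosen by this difference, and its groups did not overlap. Leaving out bulls or setting slides apart therefore could not turn its sign, and only the alternatives of processing could. It was -1.38 with within-array loess and -1.19 in the authors' deposited table. The HSD3B1 H3K27me3 difference was negative under 14 alternatives (-0.99 to -0.29). The SRD5A2 H3K27me3 difference was positive under 14 (0.11 to 1.64). Every value of these genes counts as used in the choice, so these steady signs are a description. The H3K4me2 differences of SRD5A2 (-1.04 to 4.08) and of the FSHR-labelled probes (-1.0 to 6.47) and the FSHR-labelled H3K27me3 difference (-0.12 to 4.07) took both signs. Within-array loess lowered the FSHR-labelled H3K4me2 ratio of SF5 from 3.22 to 1.69. The HSD3B1 H3K4me2 level was -0.31 to 0.03 over single bulls left out, 0.03 without HF5. The median H3K4me2 difference of the 37 list genes, 0.02, ranged from -0.25 to 0.30 under 15 alternatives, also -0.08 without HF5 and SF5. With 3 bulls a group, differences under about 1 log2 unit could not be resolved in the median gene. Groups of 3 are too small to test for an outlying bull.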
